A study of Mus musculus with 6 samples.

Results

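Immunoglobulin gene segments are the pieces of DNA from which B cells assemble antibody genes, and on this mouse array they were measured by 220 of 72688 probes. The members were taken by annotation alone: every probe whose gene symbols all start with Ighv, Igkv, Iglv, Ighm, Ighg, Igha, Ighd, Igkc, Iglc or Igkj. They comprised 116 heavy chain variable, 92 kappa chain variable, 4 heavy chain diversity, 4 heavy chain constant and 1 kappa chain joining probe, and 3 probes that name a variable and a constant segment together. Of the members, 207 name 1 symbol and 13 name several, 225 symbols in all. A further 12 probes name a symbol of these kinds beside other symbols and are given apart. They hold every probe for the kappa and lambda constant genes and for lambda variable segments, so the members contain no light chain constant and no lambda segment.

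RNA was hybridised to 6 Clariom D Mouse arrays, 3 of platelets from blood and 3 of bone marrow cells labelled megakaryocyte progenitors. Each cell type had 1 array each for mice given PBS, CTC41-EVs and CTC41.5G-EVs. EVs usually stands for extracellular vesicles, the membrane particles that cells release. The sources used here give no strain, age, dose, route or time, nor what the line names stand for. The mice of a group were pooled into 1 RNA sample per array. Per the labels' protocols some pools passed over magnetic beads that remove leukocytes and erythrocytes and others did not, without saying which. No group therefore had a replicate, and p-values for cell type measure only the spread between these 6 arrays.

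An antibody consists of heavy and light chains. In developing B cells of the bone marrow, 1 variable, 1 diversity and 1 joining segment are joined to make the variable exon of a heavy chain, and 1 variable and 1 joining segment to make that of a light chain. That exon is spliced to a constant region, which sets the antibody class. Ighm encodes the constant region of IgM, the class made before switching, and Ighg1, Ighg2b and Ighg3 encode those of IgG subclasses. Segments that have not been joined can be transcribed at a low level in B lineage precursors. Per RefSeq the heavy chain segments lie on chromosome 12 and the kappa segments on chromosome 6. The probes cannot be assumed to separate near-identical segments of 1 family.

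Most members lay low on the signal scale. All values below are log2 signals as deposited, or differences between them, and 3 values of a cell type stand for PBS, CTC41-EVs and CTC41.5G-EVs in that order. The median over the 220 members was 3.56, 3.67 and 3.55 in platelets given PBS, CTC41-EVs and CTC41.5G-EVs, against 4.43, 4.37 and 4.50 in progenitors given the same. Over all probes the array medians ran between 4.0 and 4.05 in platelets and between 4.38 and 4.45 in progenitors. A probe entered the test of cell type if its 6-array mean was at or above the median of such means, 4.23, which held for 91 members and not for 129. All 129 untested members were variable segments. The mean over the arrays of a cell type reached 4.23 for 58 members in platelets and for 124 in progenitors, and 43 members reached it on all 6 arrays. The members' median lay at the 37.5th percentile of all probes in platelets and at the 51.5th in progenitors.

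Platelets against progenitors, immunoglobulin probes were mostly lower. Of the 91 tested members, 72 were called lower in platelets (79.1%) and 1 higher, against 35.1% lower and 12.8% higher among all 36344 probes tested (limma, called at 1.5-fold or more with a Benjamini-Hochberg adjusted p up to 0.05). The median difference was -0.99 over tested members and -0.38 over all tested probes. The 3 platelet arrays lay below all 3 progenitor arrays for 80 tested members and above them for 1, against 57.6% and 18.3% of all tested probes. Paired by treatment, the median difference of tested members was -0.96 for PBS, -0.85 for CTC41-EVs and -0.99 for CTC41.5G-EVs. Since a probe could enter through a high level in progenitors alone, these counts describe the members that entered. For 33 of the 91 the platelet mean was under 4.23, and 31 of those 33 were called lower, beside 67.3% of all such probes, which had to be higher in progenitors to be tested. Among the 58 members at 4.23 or more in each cell type, 41 were called lower, with a median difference of -0.84. Among all probes that met the same floor in each cell type, 30.4% were called lower and the median was -0.31. In pooled RNA, fewer cells of a type and less RNA per cell cannot be told apart.

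**Figure D1:**
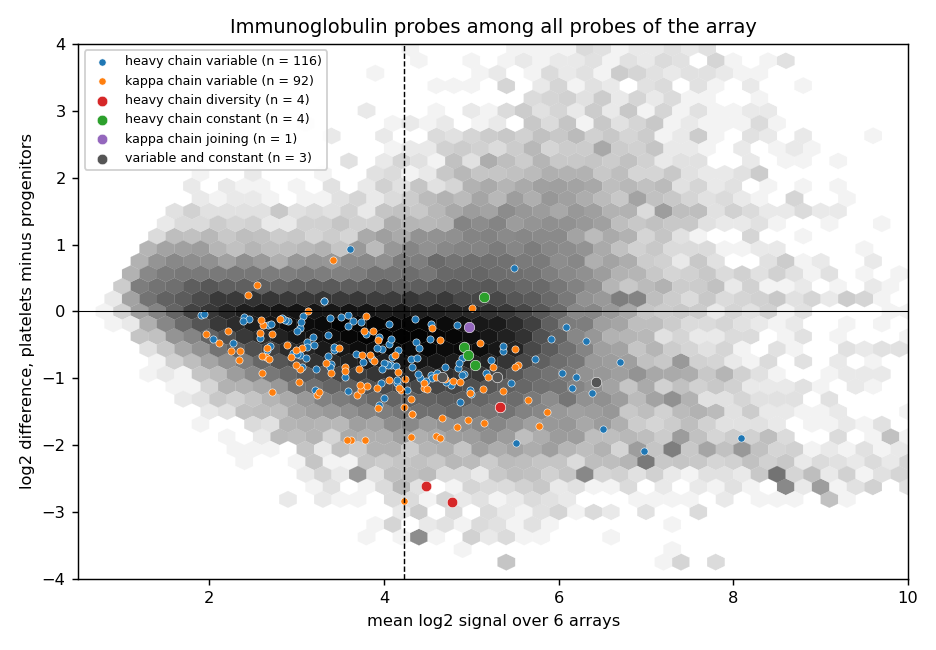
Difference in log2 signal, platelets minus progenitors (vertical), against the mean log2 signal over 6 arrays (horizontal), for the 220 immunoglobulin probes (coloured points by segment class) over all probes (grey, darker where more probes lie; the plot ends at 4 log2 units either way). The dashed line marks the test's floor of 4.23. Most immunoglobulin points lie below 0 and left of a mean of 6.

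The heavy chain constant probes did not move together. Ighg1, a constant gene of IgG, stood at 4.50 with PBS, 4.64 with CTC41-EVs and 4.8 with CTC41.5G-EVs in platelets and 5.29, 5.48 and 5.56 in progenitors. All 3 platelet arrays were below all 3 progenitor arrays, beside 57.6% of all tested probes. The difference of -0.79 (SE 0.09) had an adjusted p of 0.000913 in the limma fit. Under the other scalings tried below it was not called, at -0.42 with equal medians, -0.47 after quantile normalization and -0.08 with olfactory receptor centring. The probe for Ighg3 and Ighm together was at 4.54, 4.78 and 4.59 in platelets and 5.30, 5.35 and 5.20 in progenitors, a difference of -0.65 (SE 0.09, adjusted p = 0.00215 in limma). Under the same other scalings it was -0.27, -0.30 and 0.07, without a call. Ighg2b, another IgG constant gene, was at 4.55, 4.73 and 4.68 in platelets and 5.11, 5.19 and 5.24 in progenitors. Its groups did not overlap either, but the difference of -0.53 was under 1.5-fold.

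Ighm, probed alone, went the other way in sign. Its signal was 5.44, 5.10 and 5.22 in platelets and 4.99, 5.01 and 5.11 in progenitors. The lowest platelet value fell just under the highest progenitor value, so the groups overlapped, and the difference of 0.21 (SE 0.11) was not called, with an adjusted p of 0.137 in limma. The 3 probes that name Ighm beside a variable segment were all called lower in platelets, beside 35.1% of all tested probes. Ighm/Ighv2-7 was at 6.35, 5.54 and 5.81 in platelets and 6.86, 6.90 and 7.11 in progenitors, a difference of -1.06 (SE 0.20). Ighm/Ighv2-6 differed by -0.99 and Ighm/Igkv8-27 by -0.98. Neither had overlapping groups, beside 57.6% of all tested probes with the platelet arrays below. Ighm/Igkv8-27 averaged 4.17 in platelets, under the floor, and 5.15 in progenitors, so it was tested only through its level in progenitors. The letters of the annotation do not say which part of these transcripts a probe set reads.

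Diversity segments, the short pieces joined between variable and joining segments of the heavy chain, had the largest differences among the segment classes. RefSeq annotates all 4 of those measured as pseudogenes. Ighd5-8 was at 3.29, 3.69 and 3.09 in platelets and 6.23, 6.33 and 6.08 in progenitors, a difference of -2.86 (SE 0.11, adjusted p = 9.53e-05 in limma). Ighd6-2 was at 3.25, 3.22 and 3.05 in platelets and 5.68, 5.51 and 6.15 in progenitors, a difference of -2.61 (SE 0.18). Both were well separated, and both lay under the floor of 4.23 on every platelet array, so how large the difference is depends on the background level. They entered the test only through their level in progenitors, and the adjusted p does not account for that. Counted from the floor, the progenitor means were 1.99 and 1.55 above it for Ighd5-8 and Ighd6-2. Ighd5-7 and Ighd6-1 carried the same values on every array, 4.58, 4.73 and 4.54 in platelets and 5.79, 5.87 and 6.48 in progenitors, and so count as 1 measurement. Their difference was -1.43 (SE 0.18, adjusted p = 0.00148 in limma).

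The single joining segment probe, Igkj3 of the kappa locus, did not separate the cell types. It stood at 4.94, 5.34 and 4.30 in platelets and 5.01, 4.82 and 5.44 in progenitors. The groups overlapped, and the difference of -0.23 (SE 0.30) had an adjusted p of 0.519 in limma and changed sign under each other scaling of the arrays that was tried.

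**Figure D2:**
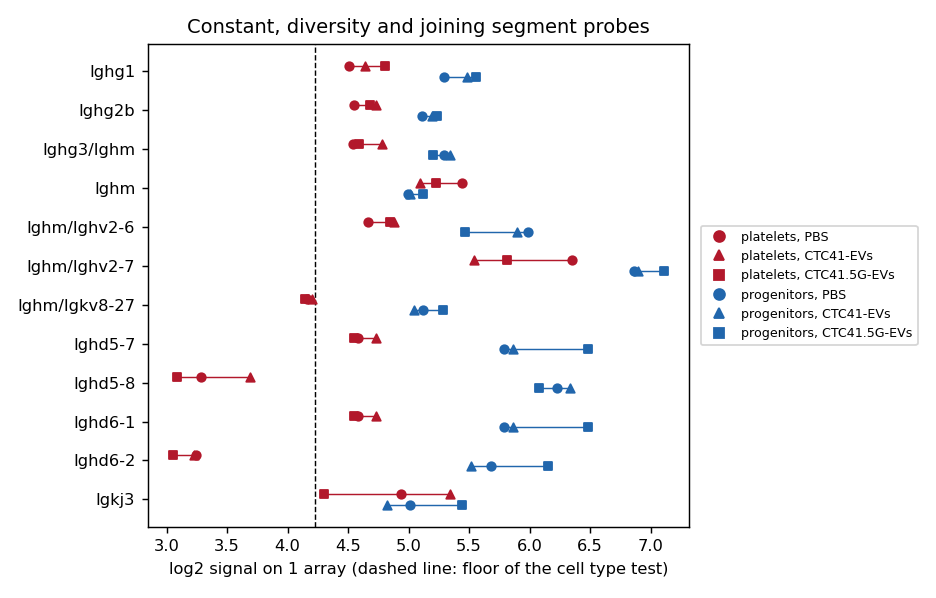
Log2 signal (horizontal) on each array for the 12 members that hold a constant, diversity or joining segment, 1 pair of lines per probe, with platelets in red above progenitors in blue and marker shape for the treatment. The dashed line is the floor of 4.23. Red and blue do not overlap for 10 of the 12 probes in the direction of lower platelets, Ighm and Igkj3 being the others, beside 57.6% of all tested probes, and with the arrays centred on olfactory receptor probes Ighg2b and Ighg3/Ighm change sign.

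Variable segments encode most of the antigen-binding part of each chain and make up 208 of the members. In the heavy chain locus 46 of 116 were tested, of which 35 were called lower in platelets, 1 higher and 10 neither, with a median difference of -0.93. In the kappa locus 33 of 92 were tested, of which 28 were called lower, none higher and 5 neither, with a median of -1.15. Among all tested probes 35.1% were called lower. In each class 15 of the tested probes had a platelet mean under the floor and so entered through progenitors. At the floor in each cell type, 22 of 31 heavy chain and 13 of 18 kappa probes were called lower, beside 30.4% of all such probes. Over all members of a class, tested or not, the medians were -0.65 for heavy chain and -0.90 for kappa chain variable segments. Variable segments that RefSeq annotates as pseudogenes, which cannot give a working chain, numbered 10, and all 5 that were tested were called lower with a median of -1.32. Of the other 198, 74 were tested and 58 called lower, with a median of -0.97.

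Ighv2-5 had the highest mean signal of any member over the 6 arrays. It stood at 7.11, 6.84 and 7.46 in platelets and 9.15, 9.04 and 8.90 in progenitors, a difference of -1.89 (SE 0.20, adjusted p = 0.000887 in limma). Ighv1-2, annotated as a pseudogene, was at 5.81, 6.10 and 5.89 in platelets and 7.98, 7.90 and 8.17 in progenitors. Its difference of -2.08 (SE 0.16) was the largest among called variable segments, with each platelet array far below each progenitor array. Ighv12-3 was at 5.73, 5.64 and 5.49 in platelets and 7.51, 7.46 and 7.18 in progenitors, a difference of -1.76 (SE 0.12). Ighv6-4 was at 4.97, 4.06 and 4.54 in platelets and 6.61, 6.47 and 6.39 in progenitors, a difference of -1.97 (SE 0.17). These 4 probes remained lower under every scaling of the arrays tried below.

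Other heavy chain segments with a high mean signal moved less. Ighv2-2 differed by -1.22, Ighv2-4 by -1.14, Ighv1-56 by -0.99, Ighv2-6-8 by -0.93 and Ighv2-3 by -0.76, all called lower. Ighv10-1 (-0.44, adjusted p = 0.0289 in limma) was under 1.5-fold, and Ighv5-12-4 (-0.23, adjusted p = 0.225 in limma) was not called. On the platelet arrays Ighv5-12-4 was at 5.76, 6.16 and 5.99, and on the progenitor arrays at 6.34, 6.21 and 6.05, so its groups overlapped.

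Several of the kappa segments with the largest called differences lay under the floor in platelets. Igkv4-71 was at 3.87, 3.41 and 3.79 in platelets and 5.34, 5.60 and 5.81 in progenitors, a difference of -1.89 (SE 0.16). Igkv4-59 differed by -1.88 and Igkv4-61 by -1.86, and the means of all 3 in platelets were under the floor. Counted from the floor, their progenitor means were 1.36, 1.02 and 1.30 above it. Igkv4-56, annotated as a pseudogene, was above the floor on every array, at 5.05, 4.91 and 4.77 in platelets and 6.61, 6.53 and 6.75 in progenitors, a difference of -1.72 (SE 0.13). Igkv3-10, whose platelet mean was also under the floor, differed by -1.73, and Igkv8-34, whose platelet mean was above it, by -1.67 with 4.07, 4.35 and 4.52 in platelets against 5.91, 5.82 and 6.22 in progenitors.

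Ighv1-63 was the 1 member called higher in platelets. It stood at 5.85, 5.83 and 5.76 in platelets and 5.42, 5.26 and 4.82 in progenitors, a difference of 0.65 (SE 0.13, adjusted p = 0.00778 in limma). Every platelet array was above every progenitor array, but the call rests on the CTC41.5G-EVs pair. Without either the platelet or the progenitor CTC41.5G-EVs array, the difference was 0.50 and was not called.

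**Figure D3:**
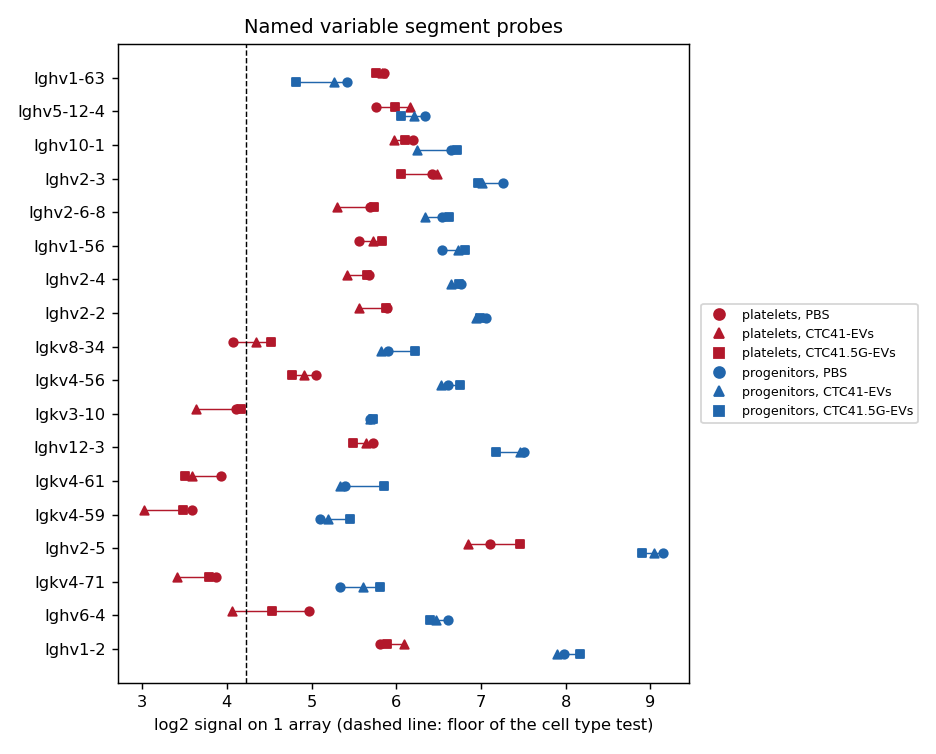
Log2 signal (horizontal) on each array for 18 variable segment probes, those of highest mean signal and those with the largest called differences, with platelets in red above progenitors in blue and marker shape for the treatment. The dashed line is the floor of 4.23. Ighv1-63 at the top is the probe called higher in platelets, and Ighv5-12-4 overlaps. From Ighv10-1 downwards every red point lies left of every blue point of its probe, beside 57.6% of all tested probes. The probes with the largest called differences were chosen by that difference, so their separation follows from the choice.

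Families of variable segments, defined by sequence likeness and named by the number after the V, differed in how many members could be measured. The counts below stand beside 35.1% called lower and 12.8% higher among all tested probes. All 8 Ighv2 members were tested and 7 were called lower, with a median of -1.11. The exception, Ighv2-9-1, was at 5.64, 5.40 and 6.07 in platelets and 6.18, 5.89 and 6.29 in progenitors, a difference of -0.42 that turned positive when arrays were centred on olfactory receptor probes. Of 61 Ighv1 members, the largest family, 21 were tested, 17 called lower and 1 called higher. Many of these 21, Ighv1-36 and Ighv1-49 among them, had a platelet mean under the floor and were tested only through their level in progenitors. Over all 61 the median difference was -0.60. Of 26 Igkv4 members, 8 were tested and called lower, but 7 of these 8 had a platelet mean under the floor and were tested only through their level in progenitors. The median over all 26 was -1.14. Members of 1 family share sequence, so these are not independent measurements.

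The order of the heavy chain variable segments along the chromosome was taken from RefSeq, and the 113 members with a place in it were split by rank into 3 sections. The median difference was -0.80 for the 38 members nearest to the constant genes, -0.67 for the 37 in the middle and -0.55 for the 38 farthest away. In the same order 13 of 17, 13 of 16 and 8 of 12 tested members were called lower, beside 35.1% of all tested probes. All 8 Ighv2 members with a place lie in the nearest section. The trend was not tested, and signal level varies along it too: the median in progenitors was 4.65, 4.29 and 3.98, against 3.68, 3.68 and 3.45 in platelets.

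Gene families not known for a role in platelets or their precursors showed shares of the same order. Of the 75 tested probes for T cell receptor segments, which T cells join in the same way, 72.0% were called lower in platelets, with a median difference of -0.76. For olfactory receptors, the odour receptors of the nose, it was 86.2% of 282 with a median of -1.12, and for type 1 vomeronasal receptors, which detect pheromones, 92.3% of 78 with a median of -2.73. Among probes at the floor in each cell type the share called lower was 70.7% for immunoglobulin, 66.7% for T cell receptor, 78.4% for olfactory receptor and 76.9% for vomeronasal receptor probes. The olfactory receptor probes lay lower on the arrays, with a median at the 23.4th percentile in platelets and the 32.7th in progenitors.

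How the arrays were scaled to each other set how many members were called. With all arrays brought to the same median, 48 of 91 members were called lower and 2 higher, against 17.1% and 19.4% of all tested probes. After quantile normalization it was 55 lower and 1 higher, against 19.9% and 17.1%. With each array centred on the median of its olfactory receptor probes, 21 were called lower and 4 higher, against 9.89% and 32.7%. The median over all tested probes moved with the scaling, from -0.38 as deposited to -0.002, -0.06 and 0.34 under these settings, and that of tested members to -0.61, -0.65 and -0.27. The distance between the members' median and that of all tested probes was -0.61 as deposited, which a shift of whole arrays cannot change, and -0.59 after quantile normalization. Such a distance is not particular to immunoglobulin probes. Olfactory and type 1 vomeronasal receptor probes lay further below all tested probes, with medians of -1.12 and -2.73 as deposited. T cell receptor segments lay less far below, at -0.76.

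The 21 members called lower under all 4 scalings were the 4 diversity segments, 5 heavy chain variable segments and 12 kappa variable segments. They are the same 21 that olfactory receptor centring called, the scaling with the fewest lower calls. Under it 9.89% of all tested probes were called lower, and the share of all probes called under all 4 was not counted. The heavy chain ones were Ighv1-2, Ighv6-4, Ighv2-5, Ighv12-3 and Ighv1-49. Among the kappa ones were 6 of the Igkv4 family, and Igkv3-10, Igkv8-34, Igkv6-14, Igkv8-16, Igkv15-103 and Igkv2-116 were the others. In 11 of the 21 the platelet mean was under the floor, so these were tested only through their level in progenitors. No constant segment was among them: with the arrays centred on olfactory receptor probes the median of the 4 constant probes was 0.13. Ighm was called higher in platelets under 2 of the scalings, at 0.59 with equal medians and 0.93 with olfactory receptor centring, and was at 0.53 without a call after quantile normalization. Ighv1-63 was called higher under all 4.

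**Figure D4:**
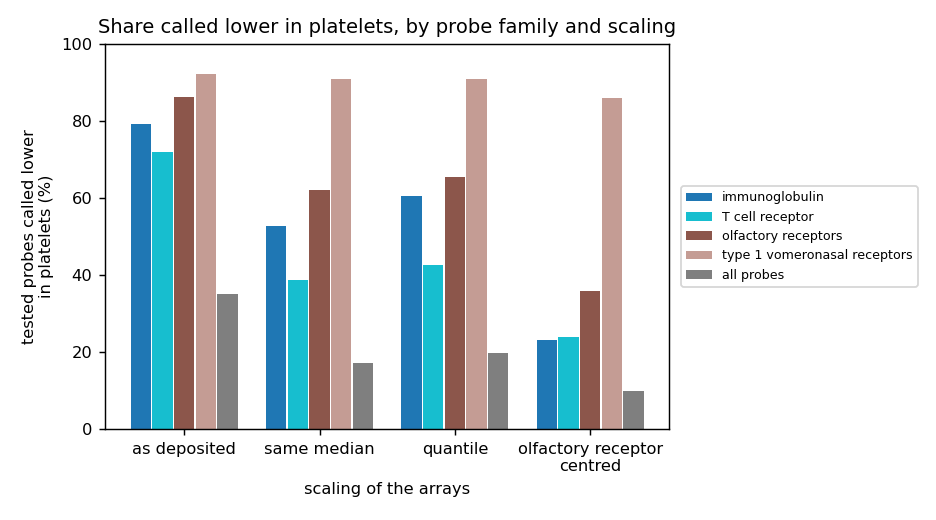
Percentage of tested probes called lower in platelets than in progenitors (vertical, from 0) by scaling of the arrays (horizontal), for immunoglobulin segments, T cell receptor segments, olfactory receptors, type 1 vomeronasal receptors and all probes. The immunoglobulin share was 79.1% as deposited and 23.1% with arrays centred on olfactory receptor probes. It lay below the olfactory receptor and the vomeronasal receptor shares under every scaling.

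The 12 probes that name an immunoglobulin symbol beside other symbols were mostly lower as well. Of these, 8 were tested and 7 were called lower, beside 35.1% of all tested probes, with a median difference of -1.09. The 1 probe with Igkc, the kappa constant gene, also names kappa joining and variable segments. It averaged 4.50 in platelets and 5.43 in progenitors, a difference of -0.93 (SE 0.09, adjusted p = 0.000578 in limma). The probe with the constant genes of IgA, IgD and IgG2c, which also names heavy chain joining segments and Ighv14-2, averaged 4.42 in platelets and 5.06 in progenitors, a difference of -0.64 and called lower. The lambda probe, which joins the lambda variable, joining and constant symbols, averaged 3.8 in platelets and 4.39 in progenitors and was under the floor of the test.

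B cell genes outside the immunoglobulin loci were called lower in 5 cases. Of 16 B cell markers with a probe of their own, 11 were tested, and 5 were called lower and none higher, a share not far from the 35.1% of all tested probes, with a median of -0.56. Those called were Spib, a B cell transcription factor (-0.90), Cd79b and Cd79a, the signalling chains of the B cell receptor (-0.87 and -0.81), the kinase gene Blk (-0.83) and the receptor gene Cd22 (-0.69). Pax5, the factor that fixes B cell identity, averaged 4.78 in platelets and 5.32 in progenitors, a difference of -0.55 under 1.5-fold, and Ebf1 differed by -0.02. Ms4a1, which encodes CD20, was under the floor, at 3.27 in platelets and 3.93 in progenitors. The summed signal of the list, as a log2 value, was 8.56 to 8.61 on the platelet arrays and 9.0 to 9.08 on the progenitor arrays.

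Precursor B cells carry the surrogate light chain, which stands in for the light chain before one is made. Of its genes, Vpreb2 was at 5.31, 5.30 and 5.57 in platelets and 6.74, 6.89 and 7.15 in progenitors, a difference of -1.53 and called lower, as was Vpreb3 (-0.95). Vpreb1 differed by -0.43 without a call, and Igll1 was under the floor. So were Rag2, needed to cut the segments for joining, and Dntt, which adds bases at the joints. In all 2 of 6 tested genes of this list were called lower and 1, Cd24a, higher, again beside 35.1% lower among all tested probes. None of the 5 tested genes of the joining machinery was called in either direction by limma. Of 10 tested plasma cell genes, 2 were called lower, Tnfrsf17 (-1.03) and Fkbp11 (-0.73), and 1 higher, Edem1 (3.88), a gene of protein quality control that many cell types use. Tnfrsf17 averaged 3.73 in platelets, under the floor, and 4.77 in progenitors, so it was tested only through its level in progenitors. The summed signals of the precursor B cell and plasma cell lists ran the other way from that of the B cell list. They were 9.18 to 9.20 in platelets and 8.59 to 8.80 in progenitors for precursor B cell genes. For plasma cell genes they were 9.48 to 9.94 in platelets and 8.46 to 8.61 in progenitors. In platelets 1 gene weighs most in each sum, Cd24a (mean 8.54, against 5.79 in progenitors) and Edem1 (9.16 against 5.28). The median differences of tested genes were negative, -0.50 for the precursor B cell and -0.34 for the plasma cell list. The part of B lineage RNA in the immunoglobulin differences was not tested.

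Among receptors that bind antibodies, calls came near the shares of all tested probes, 35.1% lower and 12.8% higher. Of 6 tested genes, Fcamr, a receptor for IgA and IgM (-0.66), and Pigr, which carries polymeric antibodies across epithelium (-0.60), were called lower. Pigr averaged 4.11 in platelets, under the floor, and 4.71 in progenitors, so it was tested only through its level in progenitors. Fcgr1 (-0.29), Fcgr3 (0.05) and Fcgrt (-0.05) were not called. Fcer1g, the signalling chain shared by several Fc receptors and by the platelet collagen receptor, was at 7.54, 7.49 and 7.89 in platelets and 5.19, 5.14 and 5.24 in progenitors, and was called higher (2.45).

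Other markers were set beside the labels of the cell types, without a list for megakaryocyte progenitors, so the progenitor label was not tested. All 8 platelet markers were called higher in platelets, and Ppbp averaged 12.43 in platelets against 5.49 in progenitors, and Pf4 12.72 against 6.44. Clec1b and P2ry12 averaged 3.95 and 3.72 in progenitors, under the floor, so they were tested only through their level in platelets. The highest platelet marker in progenitors was Itga2b, at 6.51. All 7 neutrophil markers were called lower in platelets, with Mpo, myeloperoxidase, at 4.92 in platelets and 8.12 in progenitors, and the 3 tested erythroid markers were called higher in platelets. Of the neutrophil markers, Elane averaged 4.19 in platelets, under the floor, and was tested only through progenitors. Among T cell markers, 1 of 8 tested was called lower, Cd8b1, and 1 higher, Lat, a gene that platelets use too. The part of other cell types in either RNA pool was not tested.

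Extracellular vesicle treatment, averaged over both cell types, gave no called immunoglobulin probe. In the limma fit 0 of 91 members and 0% of all tested probes were called in each of 3 contrasts. At an unadjusted p under 0.05 there were 4 members for CTC41-EVs minus PBS, 9 for CTC41.5G-EVs minus PBS and 7 for CTC41.5G-EVs minus CTC41-EVs. In percent these were 4.40, 9.89 and 7.69 of tested members, beside 3.10, 6.28 and 5.62 of all tested probes. The median differences of tested members were 0.005, -0.004 and 0.04. With 2 residual degrees of freedom, effects that differ between the cell types add to the residual, so the counts do not show that the treatments left these probes unchanged.

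Within a cell type each comparison was 1 array against 1 array, with no test. Members were counted where their mean in that cell type was at least 5.07, the 75th percentile over all probes, which held for 20 members in platelets and 69 in progenitors. A difference of 1.5-fold or more was the limit for a count. For CTC41-EVs against PBS in platelets, 0 members were past it upwards and 1 downwards, beside 1.96% and 4.96% of all probes at that floor. In progenitors it was 0 in each direction, beside 4.97% and 0.881%. The median difference of these members was -0.10 in platelets and -0.05 in progenitors, and that of all probes -0.05 and 0.05. The 1 platelet probe was Ighm/Ighv2-7, at 5.54 with CTC41-EVs and 6.35 with PBS, a difference of -0.81, while in progenitors the same difference was 0.04.

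For CTC41.5G-EVs against PBS, 1 member in platelets was past 1.5-fold upwards and 0 downwards, beside 2.11% and 2.61% of all probes. In progenitors 3 were past it upwards and 2 downwards, beside 8.32% and 2.39%. Ighv1-73 was counted in both cell types. It was at 5.51 with CTC41.5G-EVs and 4.69 with PBS in platelets, and at 5.90 with CTC41.5G-EVs and 5.28 with PBS in progenitors, differences of 0.83 and 0.62. The shared values of Ighd5-7 and Ighd6-1 account for the other 2 counts upwards, at 6.48 with CTC41.5G-EVs and 5.79 with PBS in progenitors. Downwards in progenitors, Ighv8-13 was at 4.69 with CTC41.5G-EVs and 5.63 with PBS, a difference of -0.94, and Ighv1-63 differed by -0.60. In platelets Ighv8-13, under the floor there, differed by -0.73 in the same direction, so it and Ighv1-73 each moved the same way in both cell types.

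Between the vesicle preparations, CTC41.5G-EVs against CTC41-EVs, 2 members in platelets were past 1.5-fold upwards and 0 downwards, beside 5.4% and 3.29% of all probes. They were Ighv2-9-1, at 6.07 with CTC41.5G-EVs and 5.40 with CTC41-EVs, and Ighv2-5, at 7.46 with CTC41.5G-EVs and 6.84 with CTC41-EVs. In progenitors 4 were past it upwards and 1 downwards, beside 2.14% and 2.23%. Upwards were Ighd6-2 (0.63), Igkj3 (0.62) and the shared values of Ighd5-7 and Ighd6-1 (0.61), all diversity or joining segments. The remaining diversity probe, Ighd5-8, went the other way in progenitors, at 6.08 with CTC41.5G-EVs and 6.33 with CTC41-EVs. Downwards was Ighv8-13, at 4.69 with CTC41.5G-EVs and 5.47 with CTC41-EVs, and in platelets it was at 3.84 with CTC41.5G-EVs and 4.84 with CTC41-EVs. The median difference of members was 0.13 in platelets and 0.12 in progenitors, and that of all probes 0.06 and 0.07. These contrasts share arrays with those against PBS, and without replicates none of these values has an error.

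**Figure D5:**
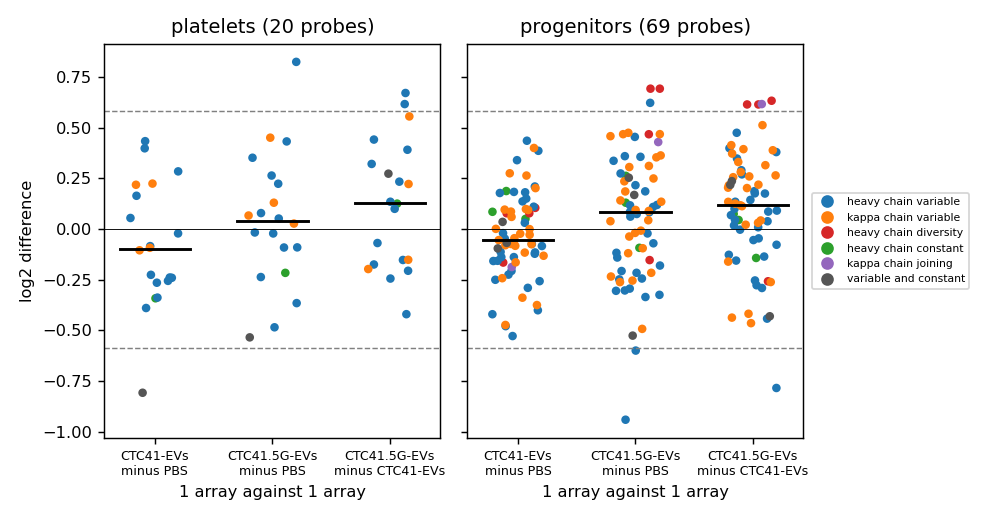
Log2 difference between single arrays (vertical) for 20 members at the floor in platelets (left panel) and 69 in progenitors (right panel) in 3 treatment contrasts (horizontal), coloured by segment class. Black bars are medians and grey dashed lines mark 1.5-fold. Few points pass the lines in any contrast, and in progenitors the points above the upper line for CTC41.5G-EVs are mainly diversity segments.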

How the data were processed

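The authors deposited log2 values, 1 per probe and array. Per the submitters' processing notes they used Affymetrix Expression Console 1.4.1.46, whereas the series design text names MAS5.0, so the scaling between arrays is uncertain. The labels name both 3 ng and 5 ng of RNA, and both the mirVana and the RNeasy kit. No source used here gives the array's genome build. Probes were named from the platform annotation, all 225 member symbols matched RefSeq (GRCm38.p6), and 0 columns were unmapped.

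Values entered limma 3.58.1 in R 4.3.3 as deposited, with additive terms for cell type and treatment and an intensity trend, leaving 2 residual degrees of freedom. The fit held 36344 probes, and Benjamini-Hochberg adjustment ran over all of them. Signal carries no depth, so the number of arrays limits precision. Alternatives covered the floor, the scaling, the model, the annotation and each array left out.

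Named probes were every tested constant, joining or diversity probe, the 10 variable probes of highest mean, up to 10 called variable probes of largest difference in each direction, up to 5 members per direction past 1.5-fold in each treatment contrast, and up to 4 called genes per marker list with its defining markers. Members, lists and rules were chosen with earlier results of these data known.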

Additional observations from a re-analysis of the deposited data

Results flagged for a closer look

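Igkj3, the kappa joining segment probe, moved in opposite directions in the 2 cell types between the vesicle preparations. CTC41.5G-EVs minus CTC41-EVs was 0.62 in progenitors, with 5.44 against 4.82, and -1.04 in platelets, with 4.30 against 5.34. Each value is 1 array against 1 array, and the difference between the cell types was not tested. Samples far from the rest of their group could not be looked for, since each group held 1 array.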

How the results depend on the processing

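With no floor, 131 of 220 members were called lower in platelets and 2 higher, with a median difference of -0.76. Among all probes it was 27.1% lower and 7.86% higher, with a median of -0.30. With the floor at the 75th percentile 28 were called lower, fewer because 36 were tested, beside 37.0% of all probes tested there. At the floor in each cell type, an alternative chosen after seeing the data, it was 41 with a median of -0.84, beside 30.4% of all such probes. Equal array medians gave 2 called higher and a median of -0.61, quantile normalization a median of -0.65, and olfactory receptor centring 21 lower, 4 higher and a median of -0.27. The shares of all tested probes under these scalings are given above. Leaving out 1 array at a time gave 71 to 74 called lower, 0 to 1 higher and medians of -0.99 to -0.94. Among all tested probes 32.0% to 36.2% were then called lower and 12.5% to 12.8% higher. Among named probes Igkj3 changed sign, to 0.14 with equal medians, 0.11 after quantile normalization, 0.48 with olfactory receptor centring and between -0.61 and 0.22 with 1 array left out. Ighv5-12-4 turned to 0.15 with equal medians. With olfactory receptor centring the differences became positive for Ighv5-12-4 (0.49), Ighv2-9-1 (0.30), Ighv10-1 (0.28), Ighv1-73 (0.19), Ighg2b (0.19) and Ighg3/Ighm (0.071). The shift between scalings is that of all probes, given above. In the treatment contrasts, the platelet median of CTC41.5G-EVs minus CTC41-EVs was -0.020 at the 90th percentile floor. In progenitors quantile normalization gave -0.12 for CTC41-EVs minus PBS, -0.059 for CTC41.5G-EVs minus PBS and 0.069 for CTC41.5G-EVs minus CTC41-EVs, and olfactory receptor centring gave 0.020 and 0.035 for the last 2 of these. The cause of these moves was not tested. Of 31 named probes, 14 kept direction and call under every alternative run. No paired analysis was possible because each group held 1 array, beyond the treatment terms of the model. Signal near background limits every value under the floor.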

Other observations

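Among the 129 members under the floor of the test, the platelet mean was below the progenitor mean for 122 (94.6%), against 73.2% of all 36344 probes under it. Their median difference was -0.59, and that of all probes under the floor -0.24. The following were singled out after their values were seen. Igkv3-1, a kappa variable segment whose mean of 4.23 over the 6 arrays lay just under the floor, was at 3.11, 3.11 and 2.21 in platelets and 5.59, 5.51 and 5.83 in progenitors. Its difference of -2.83 was the largest of any variable segment. In the other direction, Ighv1-82 averaged 4.07 in platelets and 3.14 in progenitors, and Igkv14-111 3.8 in platelets and 3.04 in progenitors. The variable segments Ighv1-62-2 and Ighv1-71 carried identical values on every array. The helicase gene Ighmbp2, which matches the symbols by its letters alone and is no immunoglobulin gene, averaged 5.02 in platelets and 5.74 in progenitors, a difference of -0.72 and called lower.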
